A study of Mus musculus with 13 samples.

Results

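The distal convoluted tubule (DCT) of the mouse kidney was examined here in its open chromatin at birth and in the adult. Its members were the nuclei that the deposited annotation of the single nuclei ATAC-seq (snATAC-seq) data assigns to the DCT cluster, 950 of 28316 nuclei. Kidneys of newborn mice (P0) gave 2 of the snATAC-seq samples, and the adult group joined 1 sample of P21 with 2 of P56, a grouping taken from the study. The labels give the 5 samples no genotype, strain, sex or treatment beyond the age. The DCT nuclei numbered 51 and 57 at P0, against 101 at P21 and 307 and 434 at P56.

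The DCT is the short nephron segment that follows the loop of Henle and leads into the connecting tubule. Its cells take up sodium and chloride through the thiazide-sensitive cotransporter NCC, encoded by Slc12a3, whose activity is set by the WNK kinases and their partners KLHL3 and STK39. The segment is also where the final uptake of magnesium is adjusted through the channel TRPM6, and its later portion takes part in calcium uptake and in the response to aldosterone. Open chromatin at a gene and its enhancers is a measure of how accessible its DNA is, and it is not a measure of its transcript.

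The labels and the data were checked first. CPM here are the open calls of a gene relative to those of all gene windows of the cluster or sample, on the usual scale of that unit. In that total a peak counts for each window it overlaps, and peaks in no window are left out. In the stage tests the totals were taken over the genes or peaks tested. Of 10 DCT markers, 9 had their highest gene activity in the DCT cluster among the 13 cell types, and the exception was Calb1, at 70.8 CPM in DCT and 100.2 in the connecting tubule cluster. Slc12a3 stood at 574 CPM in DCT, against 205 in connecting tubule and 114 in loop of Henle. The clusters were defined by the authors on the same chromatin data, so these markers describe the cluster and do not test it. The deposited matrix holds an open call for each nucleus and peak with at least 1 fragment, and no fragment counts. The DCT nuclei held 379608 and 407121 open calls at P0, against 370736 at P21 and 907782 and 2621064 at P56. A DCT nucleus had a median of 8025 and 7283 open peaks in the P0 samples, of 3270 in the P21 sample and of 2549 and 5612 in the P56 samples, so the P0 nuclei had more open peaks each, and P56 sample 1 fewer, than the other samples. Between any pair of samples at most 1 barcode of DCT nuclei was shared. The peaks of the Y chromosome genes Ddx3y, Eif2s3y, Kdm5d and Uty had open calls in both P0 samples and P56 sample 1 and none in the DCT nuclei of P21 sample 1 and P56 sample 2, so sex and stage were not balanced. In these sums of nuclei, a change in the mixture of early and late DCT cells and a change within each cell cannot be told apart.

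DCT nuclei took a larger share of the kidney in the adult. They made up 0.862% and 1.06% of the nuclei of the 13 cell types at P0, against 3.10% at P21 and 4.43% and 7.0% at P56. The groups did not overlap, and the means were 0.963% and 4.85%, a difference of 3.88 percentage points. An exact permutation test of the share, made two-sided by doubling the smaller tail, gave p = 0.2. With the 10 groupings of 2 against 3 samples, this is the smallest value that the doubled tail allows. A share of nuclei also depends on how many nuclei of the other cell types were captured.

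Open calls were summed over the DCT nuclei of each sample, and the sums were compared between P0 and adult with the quasi-likelihood test of edgeR and Benjamini-Hochberg adjustment. Gene activity was the sum over the peaks in the gene body and the 2 kb upstream of it, and it is given as CPM after scaling by trimmed mean of M values (TMM). Of 15026 genes tested, 208 (1.38%) were higher in adult and 626 (4.17%) higher at P0. Of 12247 peaks tested, 319 (2.60%) were higher in adult and 139 (1.13%) higher at P0. The deposited names call each sample a batch, and no batch held both stages. The paper used a smaller volume of lysis buffer for P0 kidneys than for older ones. Stage therefore cannot be told apart from batch or preparation. What a batch was is not stated, and nothing in the labels says that samples of a stage came from separate litters or preparations. The p-values measure the spread between these samples. The filter on low counts needed about 22.9 CPM in at least 2 samples. Of the 626 genes higher at P0, 328 passed it only through the P0 samples, and these had to be higher at P0 to be called, while 42 of the 208 genes higher in adult reached it in no P0 sample. Of the called genes described below, Scnn1b, Trpv5, Heyl, Igf2bp3, Cldn19, Cdh2, Meis1 and Spock2 passed only through the P0 samples. Sult1a1, Lrrc52, Umod, Nuak2, Htra4, Ptgs1, St3gal4, Ces1d, Klk1 and Zfp648 reached the filter in no P0 sample. Each of these genes could be called in 1 direction only. The same held, in turn, for 124 of the 139 peaks higher at P0 and 264 of the 319 peaks higher in adult. Of the called peaks described below, those of Cdh4 and of the Igf2bp2 start and the 5 largest falls passed only through the P0 samples. The peaks of the Egf start, Egfr, Cpt1a, Cry2, Zbtb16 and Per2 and the 5 largest rises reached the filter in no P0 sample. Each of these peaks could be called in 1 direction only. The median of all tested genes was 0.01 on the log2 scale, adult minus P0.

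**Figure D1:**
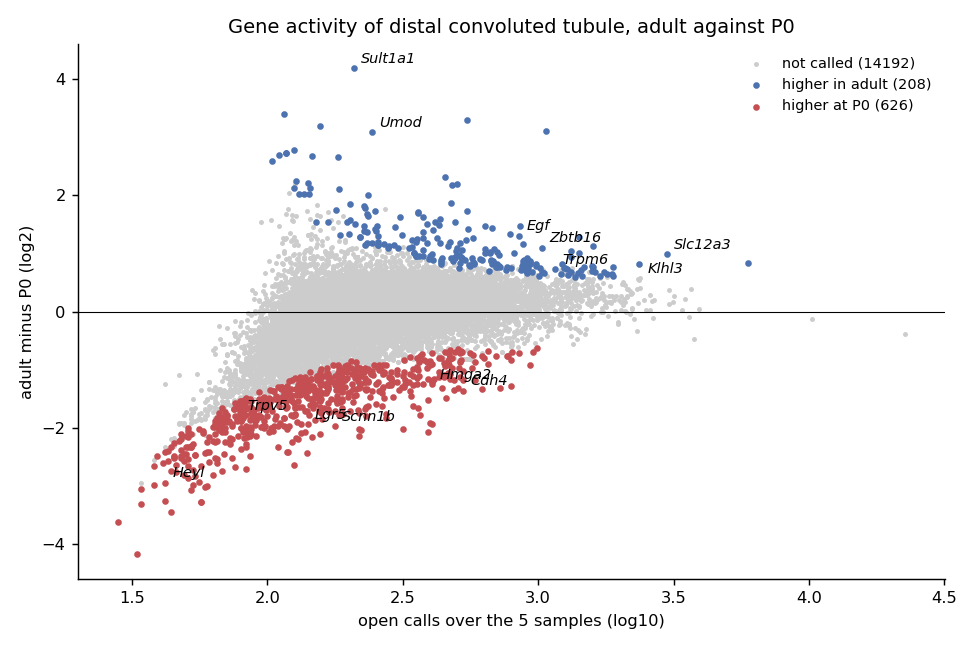
Change of gene activity from P0 to adult in DCT nuclei (log2, vertical axis) against the open calls of each gene over the 5 samples (log10, horizontal axis), with 1 point a gene. The 208 genes higher in adult are blue and the 626 higher at P0 are red, and at low totals the called genes are those higher at P0. The labels name genes of the text, among them Klhl3, which was not called.

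The call counts moved with the samples and with the scale. Without P56 sample 1, 616 genes were higher in adult and 1674 higher at P0, and without P56 sample 2 the counts were 112 and 304. Without P0 sample 1 they were 12 and 33, and without P0 sample 2 they were 9 and 49, with a single P0 sample left. Without P21 sample 1 they were 313 and 832. The 834 genes kept their direction in each of these fits in which they were tested. For peaks the counts were 108 and 7 without P0 sample 1, 25 and 1 without P0 sample 2, 487 and 317 without P21 sample 1, 466 and 466 without P56 sample 1, and 188 and 80 without P56 sample 2. DESeq2 called 68 genes higher in adult and 331 higher at P0, and 42 and 43 peaks. When open calls were scaled by the number of nuclei in place of the total of open calls, the median gene stood at -0.65 and the median peak at -0.51, with 5 genes higher in adult and 859 higher at P0, and 13 and 67 peaks. The changes given below are therefore relative to the open chromatin of the average gene, and 820 of the 834 called genes kept their sign on the scale of nuclei. Sensitivity was followed in 59 called genes of the lists, marker lists and rules, not all of which are named here. Of these, 39 passed the test without P56 sample 2, 39 by DESeq2 and 32 on the scale of nuclei, each in the same direction.

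Among the salt transport genes Slc12a3 and Fxyd2 rose and Scnn1b fell, and the other 19 were not called. Of 22 genes of the NCC and WNK list, of which all 22 passed the filter, 2 were higher in adult and 1 was higher at P0, beside 1.38% and 4.17% of all genes, and the median was 0.34, which turned to -0.33 on the scale of nuclei. Slc12a3 stood at 357 and 384 CPM at P0, against 802 at P21 and at 822 and 595 at P56. Both P0 samples were below the 3 adult samples, and the change was 0.98 (log2, SE 0.18, adjusted p = 0.00679), a 1.98-fold rise, and 0.25 on the scale of nuclei. Fxyd2, the gamma subunit of the sodium pump, stood at 211 and 186 at P0, against 367 at P21 and 305 and 315 at P56, a rise of 0.72 (SE 0.17, adjusted p = 0.023), and 0.05 on the scale of nuclei. Scnn1b, the beta subunit of the epithelial sodium channel ENaC of the aldosterone-sensitive distal nephron, stood at 111 and 90.3 at P0, against 20.4 at P21 and 34.3 and 22.6 at P56. It was 3.91-fold higher at P0 (log2 change -1.97, SE 0.26, adjusted p = 0.00117), and it passed the filter only through the P0 samples. The other ENaC subunits did not pass the test, with Scnn1a at 0.32 and Scnn1g at -0.87.

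The regulators of NCC were not called. Klhl3, the substrate adaptor that brings WNK kinases to degradation, had 393 and 371 CPM at P0 and 713, 545 and 476 in the adult samples, a difference of 0.57 (adjusted p = 0.0891). Wnk1 differed by 0.49 (adjusted p = 0.122), Wnk4 by 0.50 (0.214), Stk39, which encodes the kinase SPAK, by 0.39 (0.28) and Oxsr1 by 0.47 (0.187). On the scale of nuclei these 5 genes stood at -0.13 (Klhl3), -0.18 (Wnk1), -0.16 (Wnk4), -0.35 (Stk39) and -0.21 (Oxsr1). Of the same list, Cul3 (-0.24), Sgk1 (-0.15) and Ppp3ca (-0.20) were lower in adult on the main scale. Their P0 and adult samples overlapped, and they were not called. Kcnj10, the basolateral potassium channel, stood at 144 and 141 at P0 and between 205 and 229 in the adult samples, with a difference of 0.58 (adjusted p = 0.0633), and Ppp1r1a, a phosphatase inhibitor, differed by 1.01 (0.0588). Nedd4l, the ubiquitin ligase of ENaC, differed by 0.04.

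Slc12a3 lies at chr8:94329201-94366214 on the plus strand (mm10), and 15 peaks overlapped its body and 2 kb upstream. The peak over its start, chr8:94328760-94329567, was open in 17 of 51 and 18 of 57 nuclei at P0, in 46 of 101 at P21 and in 81 of 307 and 259 of 434 at P56, or 33.3%, 31.6%, 45.5%, 26.4% and 59.7% of nuclei. On the share of nuclei P56 sample 1 was the lowest of the 5 samples. On the scale of CPM the peak stood at 98.5 and 92.8 at P0 and at 215, 180 and 171 in the adult samples, a rise of 0.93 (SE 0.24, adjusted p = 0.0255). The last peak of the gene, over its 3′ end, went another way between the P56 samples. It was open in 56.9% and 56.1% of DCT nuclei at P0, 49.5% at P21, 83.4% in P56 sample 1 and 28.6% in P56 sample 2. In PCT nuclei the same peak was open in 23.0% and 19.9% at P0, against 34.4% at P21 and 28.1% and 55.4% at P56. In an analysis added after these values were seen, Slc12a3 without this peak stood at 277 and 304 CPM at P0, against 675 at P21 and 529 and 551 at P56, and its change was 0.99 (SE 0.17, adjusted p = 0.00536). The rise was thus as large without the 3′ end peak.

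**Figure D2:**
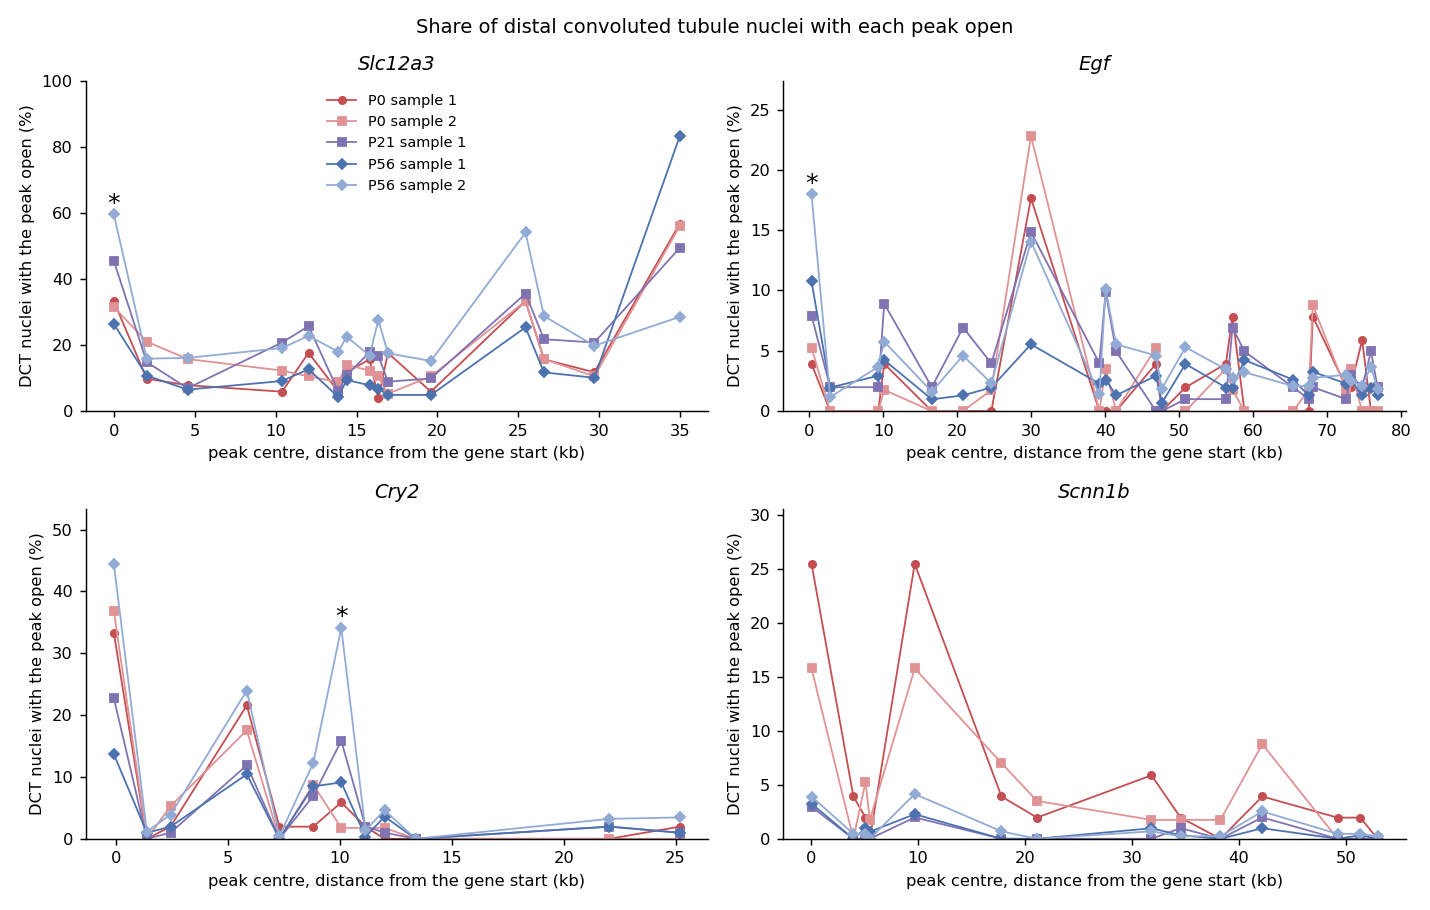
Share of DCT nuclei (%) with each peak open, by the distance of the peak centre from the gene start (kb), at Slc12a3, Egf, Cry2 and Scnn1b, with 1 line a sample joining the peaks of that sample. Stars mark peaks with adjusted p under 0.05. The last Slc12a3 peak is open in 83.4% of nuclei in P56 sample 1 and 28.6% in P56 sample 2, and the peaks of Scnn1b are open mostly in the P0 samples.

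The magnesium channel gene Trpm6 and the genes Egf and Egfr rose, and the calcium channel gene Trpv5 fell. Of 22 genes of calcium and magnesium handling, 19 passed the filter, of which 3 were higher in adult and 1 was higher at P0, beside 1.38% and 4.17% of all genes tested. The median was 0.16, and -0.42 on the scale of nuclei. Trpm6, the apical magnesium channel, stood at 158 and 168 CPM at P0, against 344 at P21 and 242 and 244 at P56, a rise of 0.73 (SE 0.20, adjusted p = 0.0429) that came to 0.06 on the scale of nuclei. Egf, whose product is released by distal tubule cells and favors magnesium uptake, stood at 85.9 and 87.8 at P0, against 255 at P21 and 239 and 170 at P56, a rise of 1.3 (SE 0.23, adjusted p = 0.00519). Its receptor Egfr stood at 61.0 and 120 at P0, against 178 at P21 and 242 and 190 at P56, a rise of 1.16 (SE 0.25, adjusted p = 0.0132). On the scale of nuclei Egf rose by 0.59 and Egfr by 0.45.

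Trpv5, the apical calcium channel of late DCT and connecting tubule, stood at 41.6 and 40.1 at P0, against 10.2 at P21 and 12.6 and 11.8 at P56. It was 3.44-fold higher at P0 (log2 change -1.78, SE 0.41, adjusted p = 0.0197), from 15 and 16 open calls in the P0 samples, and it passed the filter only through them. Neither of a pair of partners in calcium transport was called, Calb1, which encodes the calcium buffer calbindin, at 0.16, and Slc8a1, the sodium-calcium exchanger, at -0.60 (adjusted p = 0.0823). Pvalb, which encodes parvalbumin of the early DCT, had 11.1 and 7.53 CPM at P0 and 22.9, 38.9 and 26.2 in the adult samples, a difference of 1.66 (SE 0.51, adjusted p = 0.07). The magnesium transport gene Cnnm2 differed by 0.59 (0.101), and Casr, the calcium-sensing receptor, by 0.57 (0.103). Trpv6, S100g and Kcna1 did not pass the filter.

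**Figure D3:**
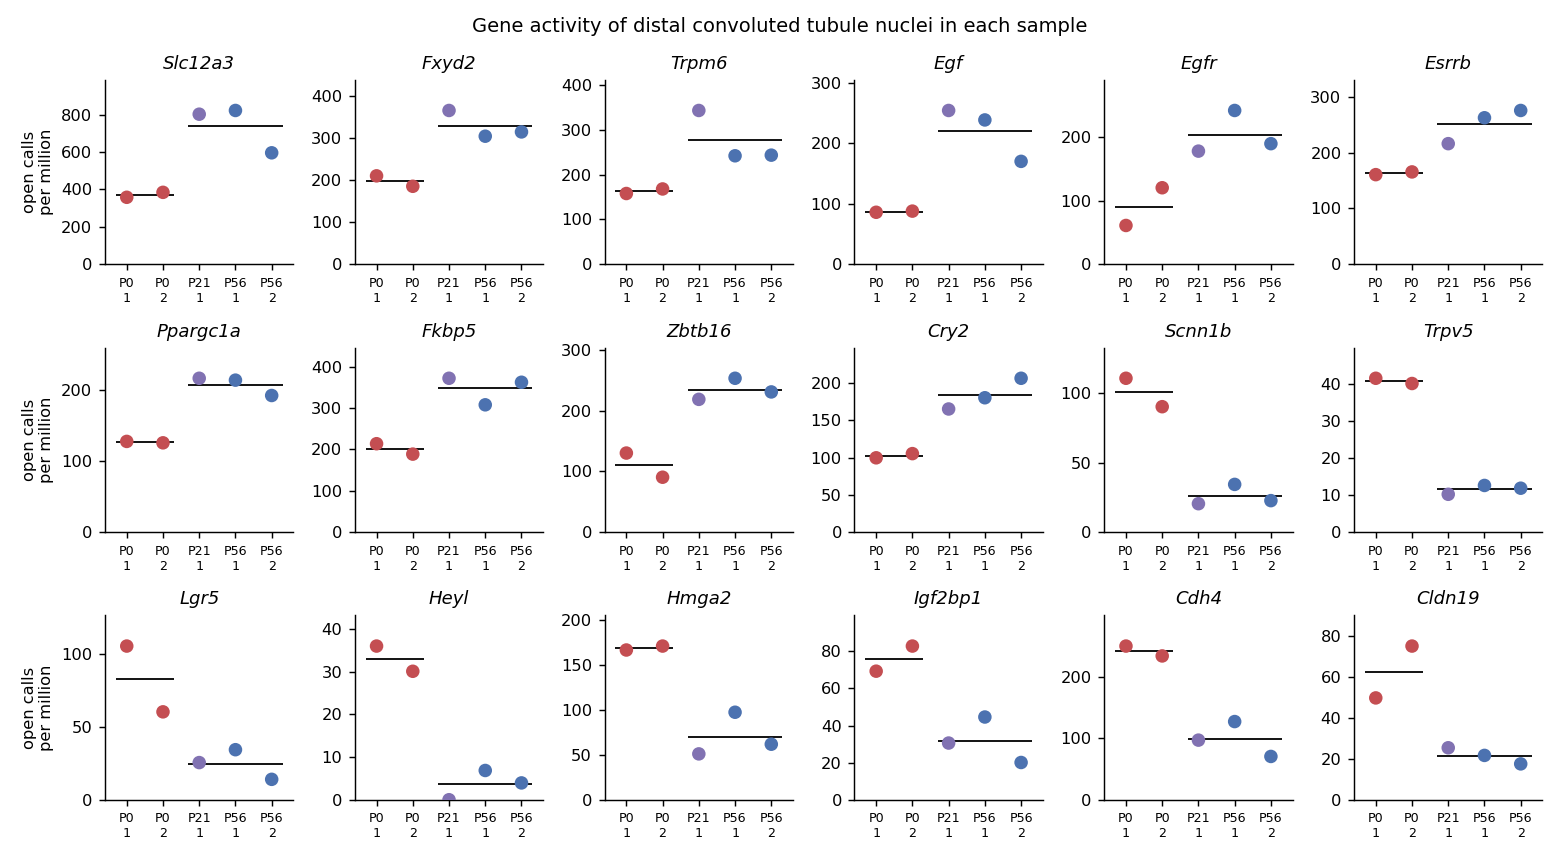
Gene activity (CPM, linear axes from 0) of 18 named genes in DCT nuclei of each sample, with P0 in red, P21 in purple and P56 in blue and a line at each group mean. The 18 genes were picked from those called between these same samples, so the lack of overlap in each describes that choice and is no further result. Slc12a3, Egf and Cry2 are among those higher in adult and Scnn1b, Trpv5 and Lgr5 among those higher at P0.

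Single peaks of the same lists were called beside the gene sums. The peak over the start of Egf, chr3:129754261-129755731, was open in 2 of 51 and 3 of 57 nuclei at P0, 8 of 101 at P21 and 33 of 307 and 78 of 434 at P56, a 4.02-fold rise in CPM (log2 2.01, SE 0.57, adjusted p = 0.0464). Intronic peaks rose at Egfr (1.32, adjusted p = 0.0198), at Cnnm2 (1.26, 0.0414) and at Mecom (1.24, 0.0184), the last encoding a transcription factor of the distal nephron. The Egfr peak at chr11:16769261-16770417 was open in 15.7% of 108 P0 nuclei and 29.1% of 842 adult nuclei, the Cnnm2 peak at chr19:46825018-46825531 in 14.8% and 27.3%, and the Mecom peak at chr3:30107939-30108948 in 17.6% and 32.1%. Mecom as a gene sum differed by 0.27 and was not called.

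The central 200 bases of these 3 intronic peaks are shown as the sequences whose accessibility rose in the ion transport and transcription factor lists. They are read from GRCm38.p6 (mm10) on the plus strand, 5′ to 3′, in lower case. Capitals would mark a match to any of the 14 motifs searched, and none of these windows held one, which says only that those letters are not in them.
Egfr: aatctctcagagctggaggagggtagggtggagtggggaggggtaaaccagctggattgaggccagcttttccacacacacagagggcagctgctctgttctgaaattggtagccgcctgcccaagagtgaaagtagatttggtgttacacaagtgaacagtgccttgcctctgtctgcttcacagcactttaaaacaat
Cnnm2: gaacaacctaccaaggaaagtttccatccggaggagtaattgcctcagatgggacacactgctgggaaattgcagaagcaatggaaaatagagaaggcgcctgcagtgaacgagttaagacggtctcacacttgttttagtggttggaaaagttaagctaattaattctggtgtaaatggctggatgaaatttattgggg
Mecom: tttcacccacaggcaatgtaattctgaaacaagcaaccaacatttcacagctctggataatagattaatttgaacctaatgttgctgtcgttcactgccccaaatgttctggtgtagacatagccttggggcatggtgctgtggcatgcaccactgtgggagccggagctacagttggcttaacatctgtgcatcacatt

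Transcription factors of the distal tubule showed few calls. Of 27 genes, 23 passed the filter, and edgeR called 1 higher in adult and 0 higher at P0, beside 1.38% and 4.17% of all genes tested. At an unadjusted p under 0.05 edgeR had 4 higher in adult and 2 higher at P0. DESeq2 called 0 in either direction. The median was 0.23, or -0.41 on the scale of nuclei. The called gene was Esrrb, a nuclear receptor related to the estrogen receptors, with 161 and 166 CPM at P0, against 216 at P21 and 263 and 276 at P56 (log2 0.65, SE 0.18, adjusted p = 0.0445). The change of Esrrb reversed to -0.03 on the scale of nuclei, and it passed the test in 6 of 15 alternatives. Tfap2a and Tfap2b, of the AP-2 family that is active in distal tubule, differed by 0.49 and 0.29, Emx1 by 0.47, Sall3 by 0.46 and Prdm16 by 0.15. Pax8, an early kidney transcription factor, differed by -0.54. None of these 6 genes was called, and Irx1, Irx2, Irx3 and Hmx2 did not pass the filter.

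Of 30 genes of mitochondria and fatty acid oxidation, which all passed the filter, edgeR called 1 higher in adult and 0 higher at P0. The shares of all genes tested were 1.38% and 4.17%. At an unadjusted p under 0.05 edgeR had 6 higher in adult and 1 higher at P0. DESeq2 called 0 in either direction. The median was 0.19, and -0.44 on the scale of nuclei. Ppargc1a, the coactivator that drives mitochondrial genes, stood at 127 and 125 CPM at P0, against 216 at P21 and 214 and 192 at P56 (0.70, SE 0.18, adjusted p = 0.0299, and 0.01 on the scale of nuclei). Enzymes of oxidation such as Acadm (0.02), Cs (0.19) and Atp5b (0.39) were not called. Within Cpt1a, the gate of long-chain fatty acids into mitochondria, an exonic peak was open in 2 of 51 and 0 of 57 nuclei at P0 and in 17 of 101, 42 of 307 and 102 of 434 adult nuclei, a 13.6-fold rise in CPM (log2 3.76, SE 0.66, adjusted p = 0.00198), while the Cpt1a sum differed by 0.46 and was not called.

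Genes of steroid response and of the circadian clock held 4 calls, each higher in adult, among the 24 of 26 genes that passed the filter (edgeR, with 0 higher at P0). Of all genes tested, 1.38% were higher in adult. At an unadjusted p under 0.05 edgeR had 8 of the list higher in adult and 2 higher at P0. DESeq2 called 2 genes of the list, and edgeR 0 on the scale of nuclei and 0 without P0 sample 2. The median was 0.30, or -0.37 on the scale of nuclei. Fkbp5, a glucocorticoid-induced chaperone of steroid receptors, stood at 213 and 188 CPM at P0, against 372 at P21 and 307 and 362 at P56 (0.79, SE 0.17, adjusted p = 0.0157, and 0.14 on the scale of nuclei). Zbtb16, a glucocorticoid-induced transcription factor, stood at 130 and 90.3 at P0, against 219 at P21 and 254 and 231 at P56 (1.1, SE 0.20, adjusted p = 0.00553). The clock repressors Per2 and Cry2 rose by 0.73 (adjusted p = 0.0314, and 0.10 on the scale of nuclei) and 0.87 (0.0152). Per2 stood at 155 and 178 at P0 and at 303, 232 and 298 in the adult samples, and Cry2 at 99.8 and 105 and at 165, 181 and 207. The receptors themselves were not called, with Nr3c1, the glucocorticoid receptor, at 0.19 and Nr3c2, the mineralocorticoid receptor, at 0.28. Neither were the clock activators Arntl (-0.04) and Clock (-0.14), nor Per1 (0.64, adjusted p = 0.111) and Dbp (0.63, 0.144). The time of day of sampling is not in the labels, and its part in the clock genes was not tested.

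An intronic peak carried part of the rise in Cry2. At chr2:92423702-92424276, 10.1 kb from the gene start, it was open in 3 of 51 and 1 of 57 nuclei at P0, 16 of 101 at P21 and 28 of 307 and 148 of 434 at P56, which is 7.49-fold in CPM (log2 2.91, SE 0.53, adjusted p = 0.00286). The peak over the Cry2 start differed by 0.14 and was not called. Intronic peaks of Zbtb16 (1.61, adjusted p = 0.033) and Per2 (1.23, 0.0413) rose as well. The central 200 bases of these 3 peaks are given because they lie in genes of the steroid and clock list that were called, and they were chosen after the values were seen. Capitals mark the 1 match in Per2 to the steroid receptor letters ACANNNTGT, from position 159 of the window, and the 1 match in Cry2 to the E-box letters CACGTG of the clock activators, from position 32. The window of Zbtb16 held no match.
Per2: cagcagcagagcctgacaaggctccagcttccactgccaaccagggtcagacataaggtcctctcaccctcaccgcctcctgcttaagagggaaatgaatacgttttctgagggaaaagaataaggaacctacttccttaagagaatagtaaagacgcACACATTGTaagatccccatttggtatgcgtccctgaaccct
Zbtb16: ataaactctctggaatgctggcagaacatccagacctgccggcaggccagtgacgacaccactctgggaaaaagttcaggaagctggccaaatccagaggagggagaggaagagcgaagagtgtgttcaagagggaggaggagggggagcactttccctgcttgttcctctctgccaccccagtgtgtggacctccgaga
Cry2: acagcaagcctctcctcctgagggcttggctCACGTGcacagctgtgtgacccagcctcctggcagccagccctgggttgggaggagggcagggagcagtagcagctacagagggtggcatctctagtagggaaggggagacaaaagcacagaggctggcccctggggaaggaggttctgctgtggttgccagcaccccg

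The calls among genes of early nephron development and of fetal growth were each toward P0. Of 30 genes of nephron progenitors and the early nephron, 16 passed the filter, of which edgeR called 0 higher in adult, also at an unadjusted p under 0.05, and 4 higher at P0, beside 1.38% and 4.17% of all genes tested, and DESeq2 0 and 3. The median was -0.06, and -0.72 on the scale of nuclei. Six2, Cited1, Osr1, Wnt4 and Fgf8 were among those that did not pass. Lgr5, which marks cells of the forming distal nephron segment, stood at 105 and 60.2 CPM at P0, against 25.5 at P21 and 34.3 and 14 at P56 (-1.94, SE 0.37, adjusted p = 0.00709). Heyl, a Notch target, stood at 36.0 and 30.1 at P0, against 0 at P21 and 6.86 and 3.94 at P56 (-2.94, SE 0.66, adjusted p = 0.0176), having passed the filter only through the P0 samples. Lef1, the Wnt effector, fell by 1.40 (adjusted p = 0.0197). The fourth was Hmga2, a chromatin protein of fetal tissue, at 166 and 171 at P0 and 50.9, 97.1 and 61.6 in the adult samples (-1.25, adjusted p = 0.00553). Notch1 (-0.03), Notch2 (-0.15), Jag1 (-0.29) and Hes1 (0.35) were not called.

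Of 20 fetal growth and imprinted genes, 12 passed the filter, with 0 higher in adult (1 at an unadjusted p under 0.05) and 4 higher at P0 by edgeR, beside 1.38% and 4.17% of all genes tested, and their median was -0.73, or -1.39 on the scale of nuclei, and 0.15 over the members that passed after thinning to 1000 open peaks a nucleus. DESeq2 called 0 of these genes in either direction. The 4 called by edgeR were Igf2bp1, Igf2bp2 and Igf2bp3, the RNA-binding proteins of IGF2 and other fetal transcripts, and Igf2r, which clears IGF2. Igf2bp1 stood at 69.3 and 82.8 at P0, against 30.5 at P21 and 44.6 and 20.1 at P56 (-1.41, adjusted p = 0.0197), Igf2bp2 fell by 1.27 (0.0207), Igf2bp3, which passed the filter only through the P0 samples, by 1.37 (0.0172) and Igf2r by 0.66 (0.0415). The peak over the Igf2bp2 start was open in 23.1% of P0 nuclei and 4.51% of adult nuclei (-1.85, adjusted p = 0.0296). Igf1r, the growth factor receptor, differed by 0.39 as a sum, and 1 intronic peak of it rose by 1.1 (adjusted p = 0.0302). Igf2 itself, H19 and Lin28b did not pass the filter. Of 21 cell cycle genes that passed among 25, edgeR called 0 in either direction (1 at an unadjusted p under 0.05), DESeq2 0, and the median was -0.00, or -0.63 on the scale of nuclei. Mki67, a marker of dividing cells, differed by -0.32 and Top2a by 0.14.

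The summed levels of most marker lists of other cell types were also higher at P0 within the DCT nuclei. The 8 connecting tubule markers summed to 676 and 514 CPM at P0 and 389, 397 and 381 in the adult samples. Of the 7 connecting tubule markers tested, Trpv5 and Scnn1b were called higher at P0, Klk1 higher in adult and 4 were not called. Of all genes tested, 4.17% were called higher at P0 and 1.38% higher in adult. Trpv5 and Scnn1b passed the filter only through the P0 samples, and Klk1 reached it in no P0 sample. The 8 principal cell markers summed to 424 and 321 and to between 235 and 237, the 8 podocyte markers to 407 and 391 and to between 234 and 343, the 8 endothelial markers to 188 and 223 and to between 94.3 and 117, the 9 stromal markers to 166 and 188 and to between 88.2 and 94.9, and the 8 immune markers to 74.8 and 72.8 and to between 28.0 and 46.9. The 8 nephron progenitor markers summed to 155 and 128 and to between 61.1 and 73.1. Among markers tested, 1 of 4 principal cell, 1 of 5 podocyte, 1 of 2 stromal and 1 of 1 progenitor markers were called higher at P0. The principal cell call was Scnn1b again, the stromal call was Meis1 and the progenitor call was Spock2. These genes passed the filter only through the P0 samples, so they could be called in 1 direction only. Of the endothelial markers 0 of 3 were called, and of the immune markers 0 of 1. The sum of the 8 loop of Henle markers went the other way, at 418 and 391 and at 484, 504 and 443. Of the 7 loop of Henle markers tested, 1 was called higher in adult, 1 higher at P0 and 5 were not called. Their changes ran from -1.21 to 3.08, the latter in Umod. The 12 proximal tubule markers stood at 186 and 193 and at 196, 253 and 278. The 8 intercalated cell markers summed to 116 and 120 and to 66.2, 111 and 64.2. The 10 DCT markers summed to 1532 and 1496 at P0 and 2821, 2409 and 2118 in the adult samples. Among these lists the intercalated marker Atp6v1g3, the proximal marker Kap and the immune marker C1qb had no open call in any DCT nucleus. The part of other cells or of free DNA in the calls toward P0 was not tested.

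**Figure D4:**
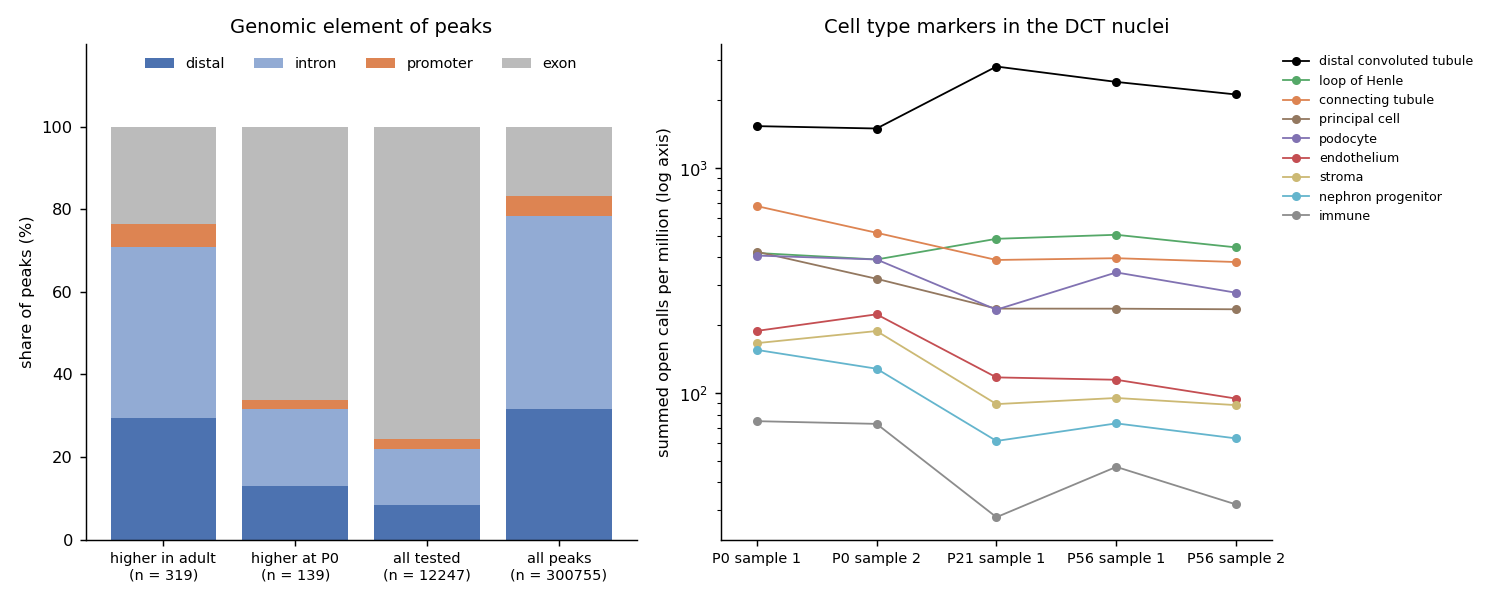
Left, the share of peaks (%) in distal, intronic, promoter and exonic elements for the 319 peaks higher in adult, the 139 higher at P0, the 12247 tested and all 300755 peaks. Right, summed gene activity of marker lists in the DCT nuclei (CPM, log axis) in each sample, where the DCT markers rise from 1532 and 1496 at P0 to between 2118 and 2821 and the sum of the connecting tubule markers falls from 676 and 514 to between 381 and 397.

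Among genes of junctions and adhesion there were calls in both directions. Of 28 genes, 27 passed the filter, 2 were higher in adult and 4 were higher at P0, beside 1.38% and 4.17% of all genes tested, and the median was -0.28, or -0.92 on the scale of nuclei. The collagen IV genes Col4a3 (0.97, adjusted p = 0.0149) and Col4a4 (0.87, 0.027), which share peaks between their starts and encode chains of the mature basement membrane, were higher in adult. Lama1, the laminin chain of early basement membranes, fell by 1.04 (0.027), Cdh2 by 1.51 (0.0296) and Cldn19 by 1.65 (0.00709), the last pair having passed the filter only through the P0 samples. Cldn19, a claudin of the tight junction in thick ascending limb, stood at 49.9 and 75.3 CPM at P0, against 25.5 at P21 and 21.7 and 17.6 at P56. Cdh4, the retinal cadherin, had the lowest adjusted p of the list, with 249 and 233 at P0, against 96.7 at P21 and 127 and 70.2 at P56 (-1.36, SE 0.22, adjusted p = 0.00373). One intronic peak of Cdh4, chr2:179774259-179775247, was open in 12 of 51 and 13 of 57 nuclei at P0 and in 1 of 101, 6 of 307 and 11 of 434 adult nuclei. In CPM it was 7.85-fold higher at P0 (-2.97, adjusted p = 0.0027), and it passed the filter only through the P0 samples. The central 200 bases of this peak, chosen after its values were seen, stand here as a sequence whose accessibility fell, and no motif searched had a match in them.
Cdh4: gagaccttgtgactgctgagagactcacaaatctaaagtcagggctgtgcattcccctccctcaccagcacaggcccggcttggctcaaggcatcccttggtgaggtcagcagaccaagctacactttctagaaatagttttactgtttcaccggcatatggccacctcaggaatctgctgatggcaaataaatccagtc

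By the rule for the largest changes, 10 protein-coding genes were named in each direction among those with 200 or more open calls, adjusted p under 0.05 and groups that did not overlap. Sult1a1, a sulfotransferase, led the rises, with 5.54 and 0 CPM at P0, against 48.4 at P21 and 48.0 and 52.0 at P56 (4.18, SE 0.57, adjusted p = 0.00135). Its P0 values are 2 and 0 open calls, so the size of its change and its rank are uncertain. Lrrc52, an auxiliary subunit of potassium channels, followed, with 13.9 and 12.5 at P0, against 140 at P21 and 117 and 135 at P56 (3.29, SE 0.29, adjusted p = 8.62e-05), a 9.79-fold rise. Umod, which encodes uromodulin, the main protein of normal urine and a marker of the thick ascending limb, rose by 3.08 (adjusted p = 0.00186), from 11.1 and 2.51 to 43.3, 57.1 and 61.3. The P0 values of Umod are 4 and 1 open calls. Nuak2, a kinase related to AMPK, rose by 2.31, the protease gene Htra4 by 2.00, the organic cation transporter gene Slc22a4 by 1.87, Ptgs1, which encodes cyclooxygenase 1, by 1.78, Pdilt, a gene next to Umod, by 1.73, the sialyltransferase gene St3gal4 by 1.72 and the carboxylesterase gene Ces1d by 1.69.

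Among the falls, Sdk2, a cell adhesion gene, changed by -2.14, from 155 and 125 at P0 to 50.9, 36.6 and 21.5. Zfp423, a transcription factor gene, stood at 255 and 213 at P0 and 61.1, 66.3 and 48.0 in the adult samples (-2.06, SE 0.19, adjusted p = 8.62e-05). Soga1 (-2.03), Ntm (-2.02) and Kif26b (-2.02), the last known from early kidney development, followed, and then Ptprm (-1.93), a receptor phosphatase gene, and Chst11 (-1.91), which acts in chondroitin sulfate synthesis. Ptges, which encodes the prostaglandin E synthase, changed by -1.83, Speg by -1.80 and the homeobox gene Pknox2 by -1.78. In these 20 genes every adult sample lay on 1 side of both P0 samples, as the rule required.

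The P21 sample lay close to the P56 samples. Among the 208 genes higher in adult, it was between the P0 and P56 samples in 112 (53.8%), and among the 626 genes higher at P0 in 188 (30.0%), where it was so in 10.2% of all genes tested. The median difference from P0 was 0.97 at P21 and 1.06 at P56 for the genes higher in adult, and -1.36 and -1.36 for those higher at P0. Since both ages entered the choice of these genes, the values are a description. The 2 P56 samples differed by a median of 0.39 in the genes higher at P0, with P56 sample 1 above P56 sample 2, and by 0.01 in the genes higher in adult.

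The elements of the peaks higher in adult and at P0 are given as a description, since 264 of the 319 reached the filter on low counts in no P0 sample and 124 of the 139 passed it only through the P0 samples. With each peak assigned in the order exon, intron, promoter (5 kb upstream of a gene start) and distal, 226 of the 319 peaks higher in adult were intronic or distal, 70.8% (95% Wilson interval 65.6 to 75.6). Of the 139 peaks higher at P0 the share was 31.7% (24.5 to 39.8), beside 21.9% of the peaks tested and 78.3% of all peaks. Of the peaks higher in adult 11.3% lay over a transcript start, of those higher at P0 61.2%, and of those tested 71.3%. The peaks tested are thus mostly over gene starts, and the peaks higher at P0 were nearer to this background. Median widths were 793 bp for the peaks higher in adult, 1171 bp for those higher at P0 and 1032 bp for those tested. The intervals cover counting error only.

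The 5 peaks with the largest rise, among called peaks with at least 100 open calls, were open in 0 of 108 DCT nuclei at P0, which allows a share of up to 2.78%. They lay in an exon and an intron of Stat5b, a signal transducer of growth hormone and prolactin, in introns of Slc27a2, a fatty acid transporter, and of Tspan9, and in a promoter region of chromosome 13 outside the gene windows used. The Stat5b peaks at chr11:100790565-100791451 and chr11:100791493-100792110 were open in 13.9% and 14.7% of 842 adult nuclei, at least 5.61-fold and 6.42-fold above the limit of 3 counts over the P0 group. The Slc27a2 peak was open in 14.1% (at least 6.83-fold), the Tspan9 peak in 14.6% (at least 7.72-fold) and the peak on chromosome 13 in 13.8% (at least 6.57-fold). In all, 10 of the 319 peaks higher in adult had no open call at P0. Among called peaks with at least 100 open calls, the limit that the rule set for naming peaks, the 5 largest falls were an intronic peak of Papln (-1.66), open in 45.4% of P0 nuclei and 10.8% of adult nuclei, and peaks at the starts of Clcf1 (-1.60), Ankrd13d (-1.55), Gm43177 (-1.53) and Sntg2 (-1.52).

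Motif letters were counted on both strands of the central 300 bp of each peak. The steroid receptor letters ACANNNTGT were in 12.5% of peaks higher in adult, 2.9% of those higher at P0, 4.1% of those tested and 10.0% of all peaks. Within intronic and distal peaks the shares were 15.9%, 2.3% and 9.0% of those tested. The TFAP2 letters GCCNNNGGC were in 14.1% of the peaks higher in adult, 29.5% of those higher at P0 and 27.3% of those tested, and within intronic and distal peaks in 14.2%, 27.3% and 15.6%, where the peaks higher in adult were close to those tested. The estrogen-related receptor letters TCAAGGTCA were in 2.8%, 0.7% and 0.8%, and within intronic and distal peaks in 3.1%, 2.3% and 1.9%. The E-box CACGTG was in 8.2%, 7.9% and 8.1%, and within intronic and distal peaks in 8.8%, 2.3% and 7.8%. The 2.3% at P0 of the steroid receptor, estrogen-related receptor and E-box letters is 1 of 44 peaks each. The median GC content was 51.0% for the peaks higher in adult, 61.3% for those higher at P0 and 62.0% for those tested, and the sets differ in elements as well. Over whole peaks, whose widths differ, the steroid receptor letters were in 32.0% of peaks higher in adult, 24.5% of those higher at P0 and 17.4% of those tested, so the peaks higher at P0 were below the tested peaks in the central window and above them over whole peaks. These letters overlap those of other motifs, and a match is not a bound site.

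The change from P0 to adult was next set against that of 3 other tubule cell types from the same samples, 3628 loop of Henle nuclei, 879 connecting tubule nuclei and 7412 nuclei of the proximal convoluted tubule cluster (PCT). Within these types, 22.8% of genes were higher in adult and 29.3% higher at P0 in loop of Henle, 9.74% and 15.3% in connecting tubule, and 12.8% and 15.6% in PCT. The difference between DCT and each type was tested as an interaction with the sample as a block. Against loop of Henle, 660 genes (2.68%) changed more positively in DCT and 653 (2.65%) more negatively. Against connecting tubule the counts were 202 (1.00%) and 238 (1.18%), and against PCT 882 (3.48%) and 864 (3.41%). Without the sample block 36 and 51, 0 and 13, and 147 and 125 genes were called. Leaving out P0 sample 1, P0 sample 2 or P56 sample 2 each moved some of these counts by more than 1.5 times, with the lowest at 15 for connecting tubule without P0 sample 1, and leaving out P21 sample 1 raised the first count to 1060.

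Trpv5 and Scnn1b, genes of a calcium and a sodium channel of the late distal nephron, changed differently in DCT and connecting tubule. The differences did not pass for Trpv6 (0.13, adjusted p = 0.988) and Scnn1a (-0.54, 0.22), and those that passed for Scnn1g (-1.42, 0.00414) and Trpm6 (-0.81, 0.0207) had adjusted p = 0.163 and 0.494 without the block. In CPM without TMM, Trpv5 stood in DCT at 37.3 and 36.6 at P0 and at 9.50, 11.3 and 11.2 in the adult samples, and in connecting tubule at 36.4 and 33.9 at P0 and at 118, 81.4 and 103. At P0 the values of the types lay between 33.9 and 37.3, and in the adult samples they did not overlap. The difference of the changes was -3.21 (log2, SE 0.37, adjusted p = 8.19e-07), and it held without the sample block (0.00196). Scnn1b stood in DCT at 99.5 and 82.4 and then at 19, 30.7 and 21.4, and in connecting tubule at 126 and 113 and then at 140, 158 and 120, a difference of -2.08 (SE 0.23, adjusted p = 2.84e-07, and 0.006 without the block). Slc8a1, the sodium-calcium exchanger that works with TRPV5, differed by -2.05 (1.3e-07, and 0.006 without the block). Calb1 rose in connecting tubule by 2.02 and differed by 0.16 in DCT, with a difference of -1.68 (0.00203) that was lost without the block (0.187). In loop of Henle, Trpv5 and Scnn1b fell by 1.83 and 1.68, and their changes did not differ from those in DCT beyond their errors (0.18 ± 0.56 and -0.06 ± 0.40, SE).

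Slc12a3 rose in all 4 types by the stage test, with the largest fitted change in connecting tubule, from 38.7 and 50.8 CPM at P0 to 277, 215 and 335. Its change was 2.67 there and 2.10 in loop of Henle, above that of DCT by 1.72 (adjusted p = 0.000339) and 1.04 (0.000503), while the level stayed highest in DCT, at 748, 736 and 564 in the adult samples. Without the block these differences had adjusted p = 0.0482 and 0.0953. In PCT the change was 1.05, which did not differ from DCT (0.06 ± 0.16, SE, adjusted p = 0.9). Trpm6 rose in DCT and connecting tubule (1.55) and fell in loop of Henle, from 64.9 and 64.5 to 34.7, 44.7 and 25.6, a difference of 1.64 from DCT (4.67e-07, and 0.0264 without the block). Egf rose more in loop of Henle (2.32) than in DCT, by 0.98 (adjusted p = 0.0352, and 0.271 without the block), and it differed by 0.14 in connecting tubule and -0.16 in PCT. Its change in DCT was above that of PCT by 1.56 (2.52e-11, and 0.00295 without the block) and above that of connecting tubule by 1.09 (0.0138, and 0.16 without the block). Fxyd2 rose by 2.50 in loop of Henle and 2.35 in connecting tubule, each by 1.63 more than in DCT, and both held without the block (0.00326 and 0.0413).

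**Figure D5:**
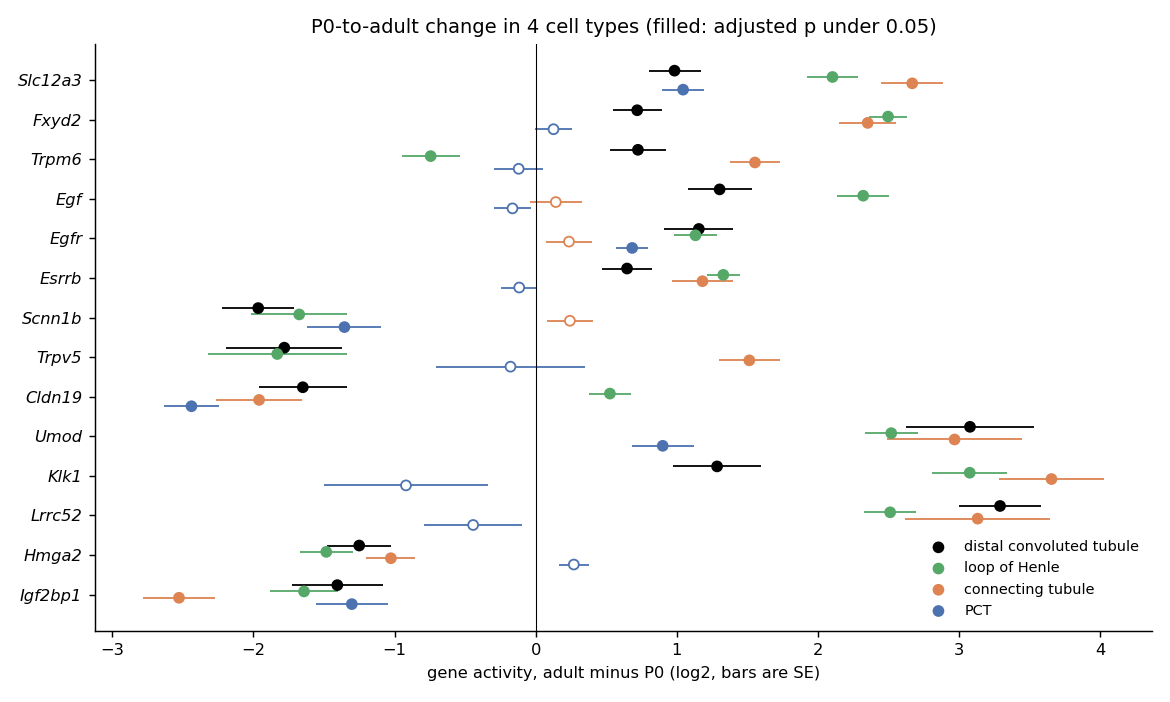
Change of gene activity from P0 to adult (log2, horizontal axis) of 14 genes in DCT, loop of Henle, connecting tubule and PCT nuclei, with SE bars and filled points where the adjusted p was under 0.05. Trpv5 falls in DCT (-1.78) and rises in connecting tubule (1.51), and Slc12a3 rises in each type. A type in which the gene was not tested has no point.

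By list, 9 of 22 salt transport genes changed less positively in DCT than in loop of Henle and 6 than in connecting tubule. In loop of Henle 18 of 22 of them were higher in adult, in connecting tubule 14 and in DCT 2, where the shares of all genes were 22.8%, 9.74% and 1.38%, so the overall call rates differ as well. These 9 and 6 differences were the ones that passed the test, and the list had median differences of -0.40 and -0.43, beside 2.65% and 1.18% of all genes. Against PCT 7 passed, each more positive in DCT, beside 3.48%. Without the sample block 1 of these 9, 3 of the 6 and 5 of the 7 passed. Of the calcium and magnesium genes, 8 of 21 tested were more negative in DCT than in connecting tubule and 2 more positive, beside 1.18% and 1.00% of all genes, and 2 of these 10 passed without the block. For the clock and steroid list 5 of 26 differences from loop of Henle and 4 of 26 from connecting tubule passed, each more negative in DCT, beside 2.65% and 1.18% of all genes, and without the block the lowest adjusted p among them was 0.267 and 0.339. For the cell cycle list edgeR called 0 of 25 differences against each of the 3 types, with 1, 2 and 3 at an unadjusted p under 0.05.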

How the data were processed

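The snATAC-seq samples were 2 of P0, 1 of P21 and 2 of P56 mouse kidneys. The authors aligned reads to mm10 (GRCm38) with Cell Ranger ATAC 1.1.0, filtered barcodes, clustered and named the nuclei, called peaks with MACS2 on pooled nuclei and deposited a binarized matrix, whose values are used here as counts of nuclei with an open peak. Per the submitters' processing notes the builds are mm10 and GRCm38. In the matrix, 89197 entries stored as 0 were read as closed.

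Open calls were summed over the DCT nuclei of each sample and compared by the quasi-likelihood test of edgeR 4.0.16 (limma 3.58.1, R 4.3.3) after TMM scaling, with BH adjustment at 0.05. Features had to pass filterByExpr, whose minimum count was 10 and minimum total count 15. Standard errors are the absolute log2 change divided by the square root of F. Differences between cell types were tested as an interaction with the sample as a block. The other steps ran in Python 3.11.15 (scipy 1.17.1, pandas 2.3.3, numpy 2.4.6 and matplotlib 3.10.9). Gene windows come from GENCODE M21, of whose 55450 genes 32949 held a peak. A peak counts for each gene window it overlaps, and 24722 peaks lie in 2 or more. Sequences were read from GRCm38.p6, whose 21 chromosomes matched those of the files.

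The members, gene lists and motifs were chosen with earlier results of these data known. The genes named are members of those lists, the 10 largest rises and falls among called genes with at least 200 open calls whose groups did not overlap, the 5 largest differences in each direction from each other cell type, and for peaks the 5 largest in each direction with at least 100 open calls and those called at genes of the salt, calcium and magnesium, and transcription factor lists. Peaks called at genes of the other lists were named after their values were seen. On simulated data, 200 features were changed 4-fold up or down, with a common dispersion for all features (0.0202 for genes and 0.0147 for peaks). Of these 198 were recovered among the 15026 genes with 11 false calls, and 185 among the 12247 peaks with 9 false calls. Real features differ in dispersion and most named changes are smaller than 4-fold, so these rates do not give the power or error here. The alternatives were DESeq2 1.42.0, its size factors, no TMM, the number of nuclei as scale, no filter, thinning to 1000 open peaks, 51 nuclei per sample, nuclei with any open peak in the window, peaks within 1 kb of the start, Fisher's exact test over nuclei, a replicate block, no sample block, and each sample left out. Depth was the total of open calls over the genes or peaks tested, and values of a few open calls carry a large counting error. Nuclei with fewer than 1000 open peaks (3, 2, 5, 10 and 1) were left out of thinning only. Doublets were not searched for. The scRNA-seq and bulk ATAC-seq data were not used here. Values of some genes of the lists and rules are not reported here.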

Additional observations from a re-analysis of the deposited data

Results flagged for a closer look

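The results below were picked out because the change from P0 to adult differed between DCT and another tubule cell type by a test of the difference itself, the edgeR interaction with the sample as a block (adjusted p under 0.05). Values are differences of log2 changes, DCT minus the other type. The largest were taken from protein-coding genes that passed this test, had at least 200 open calls in DCT and did not overlap between the stages in the difference of log2 CPM, and genes with fewer open calls, such as Pvalb (3.62 against loop of Henle) and S100g (-2.41 against connecting tubule and -2.20 against PCT), can have larger differences. Of 56 such differences, 30 also passed without the sample block, 33 without P0 sample 1, 40 without P0 sample 2 and 44 without P56 sample 2, each in the same direction.

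Against loop of Henle, genes with the most negative differences by this rule were Soga1 (-1.92), Slc16a5, a monocarboxylate transporter gene (-1.80), the kallikrein gene Klk1 (-1.76) and the inositol transporter gene Slc5a3 (-1.70). The most positive by this rule were the transcription factor genes Gata3 (2.09) and Lhx1 (2.19), Ptgs1 (2.10), Adamtsl3 (2.29) and Cntn3 (2.96). In DCT itself Gata3 differed between the stages by 0.18 and Lhx1 by 0.32, and neither was called. Among the genes of the lists that were called in DCT, the differences were -1.04 for Slc12a3, -1.63 for Fxyd2, -0.98 for Egf, -0.68 for Zbtb16, -2.01 for Cldn19, 1.64 for Trpm6, 0.83 for Lef1 and 1.11 for Cdh2. Slc12a3, Egf, Zbtb16 and Lef1 were among those that did not pass without the sample block. Cldn19 rose by 0.53 in loop of Henle and fell in DCT.

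Against connecting tubule, the most negative differences by the same rule were in Klk1 (-2.36), the prostaglandin synthase gene Ptges (-2.18), Slc8a1 (-2.05), Slc12a3 (-1.72) and Calb1 (-1.68), and the most positive in Nuak2 (1.60), Kif13a (1.61), the cytokine feedback gene Socs3 (1.67), Crocc2 (1.77) and St3gal4 (1.97). Among the called genes of the lists the differences were -3.21 for Trpv5, -2.08 for Scnn1b, -1.63 for Fxyd2, -0.81 for Trpm6, 1.09 for Egf, 0.99 for Egfr and 1.22 for Igf2bp1. Without the sample block no gene passed with a more positive change in DCT. Nuak2, Kif13a, Socs3, Crocc2, St3gal4, Egf, Egfr and Igf2bp1 therefore did not pass. Among the negative differences, those of Trpm6 and Calb1 were among the ones that did not pass without the block. Both Slc8a1 and Calb1, with Trpv5, belong to the calcium transport of the connecting tubule.

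Against PCT, the most negative differences by the same rule were in Plppr1 (-1.93), the protein kinase C gene Prkcb (-1.90), the hepatic lipase gene Lipc (-1.90), Fam83f (-1.89) and Prr5l (-1.87), and the most positive in the cytokine receptor gene Cntfr (2.70), Zfp648 (2.73, which reached the filter on low counts in no P0 sample of DCT), the keratin gene Krt7 (3.40), Uroc1 (3.56) and Lrrc52 (3.91). Among the called genes of the lists the differences were 0.74 for Fxyd2, 1.03 for Trpm6, 1.56 for Egf, 0.96 for Esrrb, -1.36 for Hmga2, -1.09 for Igf2bp2, -1.90 for Cdh2, -0.55 for Cdh4, -0.88 for Lama1, -0.71 for Col4a3 and -1.0 for Col4a4. Fxyd2, Trpm6 and Igf2bp2 were among those that did not pass without the sample block.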

How the results depend on the processing

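Counts are given as higher in adult and higher at P0, with 319 and 139 peaks and 208 and 626 genes as reported. By DESeq2 they were 42 and 43 peaks and 68 and 331 genes, with the number of nuclei as scale 13 and 67 peaks and 5 genes higher in adult, with no filter 893 and 209 peaks and 924 and 1176 genes, after thinning each nucleus to 1000 open peaks 0 and 0 of 640 peaks (35 at an unadjusted p under 0.05) and 0 and 6 of 3540 genes, and with 51 nuclei per sample 79 and 25 peaks. Thinning and equal numbers of nuclei leave fewer open calls and features. Counting nuclei with any open peak in the window gave 45 and 281 genes, and peaks within 1 kb of the start 22 and 42. Fisher's exact test over nuclei, which treats nuclei as replicates, called 409 peaks higher in adult and 3593 higher at P0. Leaving out 1 sample gave 25 to 487 and 1 to 466 peaks, and 9 to 616 and 33 to 1674 genes. For differences between cell types, more positive and more negative in DCT, it gave 157 to 1060 and 157 to 817 genes against loop of Henle, 16 to 266 and 15 to 265 against connecting tubule, and 245 to 914 and 213 to 970 against PCT, and no sample block gave 36 and 51, 0 and 13 (1393 at an unadjusted p under 0.05), and 147 and 125. With promoters taken first, 64.6% of the peaks higher in adult were intronic or distal. Over whole peaks, steroid receptor letters were in 32.0% of peaks higher in adult and 24.5% of those higher at P0, TFAP2 letters in 36.1% and 61.2%, and the E-box in 17.6% of those higher in adult. The causes of these shifts were not tested.

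The gene activity of Esrrb turned to -0.0255 with the number of nuclei as scale, the 1 reversal among the 59 called genes of the lists, marker lists and rules. These genes, not all of them named, kept direction and call in 578 fits and direction alone in 251. Of 178 genes of the lists and rules that were not called, 65 fits passed the test. The difference in the share of nuclei ran from 2.80 to 4.75 points with 1 sample left out and was 3.75 over all nuclei. A replicate block on the sample numbers gave 341 and 156 peaks and 215 and 728 genes. No label pairs the samples by their numbers. Deviations of P0 and P56 samples with the same number correlated at 0.07 and 0.06 over genes. The deviations of the 2 P0 samples are opposite by construction, so these values cannot show whether samples with the same number shared a batch. The P0 samples held 51 and 57 nuclei, and the P21 sample had the fewest open calls.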

Other observations

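The peak over the 3′ end of Slc12a3, which was open in 83.4% and 28.6% of the DCT nuclei of the P56 samples, also differed between samples in the other tubule types. In loop of Henle it was open in 6.30% and 5.37% of nuclei of the P0 samples, 15.2% of those of the P21 sample and 16.3% and 34.8% of those of the P56 samples. In connecting tubule the P0 samples had it open in 9.63% and 9.90% of nuclei, the P21 sample in 33.7% and the P56 samples in 26.9% and 28.9%. P56 sample 1 was the higher of the P56 pair in DCT, and P56 sample 2 in loop of Henle, connecting tubule and PCT. Without this peak Slc12a3 rose by 1.87 on the log2 scale in loop of Henle, by 2.83 in connecting tubule and by 0.98 in PCT, each past the edgeR threshold, a comparison chosen after seeing the data.

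Klk1, which encodes a kallikrein secreted by connecting tubule cells, rose in DCT nuclei (log2 change 1.29, SE 0.31, edgeR adjusted p = 0.025), and it reached the filter on low counts in no P0 sample. As CPM without TMM scaling, which differs from the scale used above, it stood at 22.4 and 16 in DCT nuclei of the P0 samples and at 57, 46.1 and 45.8 in the P21 and P56 samples. In connecting tubule nuclei it stood at 3.31 and 7.26 in the P0 samples and at 68.6, 52.1 and 75.1 in the P21 and P56 samples. The P0 values rest on 9 and 7 open calls in DCT and on 3 and 6 in connecting tubule, so the order of the types at P0 is uncertain. In the 3 adult samples the level was higher in connecting tubule nuclei, at P21 from 24 open calls in DCT and 28 in connecting tubule.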
